A study of Mus musculus with 2 samples.

Results

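The tricarboxylic acid (TCA) cycle enzymes described here are 9 genes: Cs, Idh2, Idh3a, Idh3b, Ogdh, Sucla2, Suclg1, Fh1 and Mdh2. They were chosen by name, as the genes whose symbol stands beside a non-control spot in both scanner files, out of 29607 gene names on the array. The study grew 661W, a cone photoreceptor-like line of immortalised mouse cells, for 3 days with fetal bovine serum in DMEM/F12 medium made without choline (the choline-deficient group) or with it (the choline-sufficient group). A value of 8.98 g/L stands beside the sufficient medium in the labels, which do not state whether it is the concentration of choline itself. Both groups are the same line in the same basal medium, with no other agent or genotype named. From 200 ng of total RNA per sample, Cy3-labelled RNA of each group went onto 1 single-colour mouse array from Agilent. The design text speaks of RNA pooled over 4 dishes and does not say whether that was per group. Since each group is 1 array, differences could not be checked against replicates and carry no p-value.

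The TCA cycle oxidises acetyl-CoA in the mitochondrial matrix and passes the electrons as NADH and reduced flavin to the respiratory chain. Citrate synthase starts it, isocitrate and oxoglutarate dehydrogenases release carbon dioxide, succinyl-CoA ligase makes a nucleotide triphosphate directly, and succinate dehydrogenase, fumarase and malate dehydrogenase rebuild oxaloacetate. Photoreceptors are known for densely packed mitochondria in their inner segments and for converting much of their glucose to lactate even in oxygen.

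Both arrays together measured 19818 genes, meaning at least 1 probe well above background and unsaturated on both, and all 9 enzymes were among them. Spots well above background made up 70.7% of the choline-deficient array and 68.5% of the other. Of 12 cone markers 7 were measured, while the cone opsin gene Opn1sw, Cngb3 and the photoreceptor transcription factor gene Crx were well above background on neither array. The cone markers Pde6c and Cnga3 were well above background on 1 array only, the first on the choline-sufficient and the second on the choline-deficient array. Of the 7 measured cone markers 3 were at least 1.5-fold higher without choline, led by Thrb at 2.26-fold, and 0 lower. Their median was 0.56, which fell to -0.12 after normexp background correction, where 0 passed, and their summed scaled signals were 1.09 and 1.02. Among 7 rod markers 3 were measured, and Nrl, Nr2e3, Pde6b and Cnga1 were above background on neither array. Their summed signals were 1.65 and 1.99, with 1 of the 3 at least 1.5-fold higher. Fibroblast markers stood apart, led by collagen genes. Of 7 measured members of a list of 8, 5 were higher without choline by at least 1.5-fold and 0 lower. After normexp background correction 4 were higher. Col1a1 was 13.5-fold, Col1a2 8.52-fold and Col3a1 8.08-fold higher, while Dcn and Fbln1 were under 1.5-fold. The list's summed scaled signal was 77.3 on the choline-deficient and 9.20 on the choline-sufficient array, in units of each array's 75th percentile. That sum mostly follows Col1a2, with scaled log2 levels of 5.96 and 2.87. Lum was above background on neither array. Glial markers summed to 2.88 and 2.03 (Kcnj10 and Sox2 dim on both arrays, Rlbp1 on the choline-sufficient array), and the median of the 6 measured was 0.09. Of these 2 were at least 1.5-fold higher (Sox9 at 5.30-fold and Slc1a3 at 3.17-fold) and 1 lower (Apoe at 3.29-fold). In the same order and units, macrophage markers summed to 0.852 and 0.822 (C1qa dim on both, 1 of 6 past 1.5-fold and higher), endothelial markers to 0.668 and 0.786 (Cdh5 and Tie1 dim on both, Tek and Cldn5 on the choline-deficient array, 1 of 2 past 1.5-fold and lower) and pigment epithelium markers to 3.33 and 3.11 (Rpe65, Ttr and Best1 dim on both). All these marker counts stand beside 14.8% of all genes at least 1.5-fold higher and 14.1% lower. The part of these marker differences in the values of the TCA cycle enzymes was not tested.

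The 9 enzymes were read by 12 probes of 60 bases, with 3 for Ogdh, 2 for Fh1 and 1 for each of the others. No member probe shared a stretch of 16 bases with a probe of another gene. The Fh1 probe designed on BC006048 spans 2431 bases of the genome (mm9, minus strand, chr1:177531659-177534089), so it joins exons across an intron. It is shown because its value can be set against that of the second Fh1 probe, which lies in 1 block further downstream (chr1:177531530-177531589). The probes of Idh3b (chr2:130106776-130106835, minus strand) and Suclg1 (chr6:73221044-73221103, plus strand) are shown beside it as examples of member probes that read without a stop codon in exactly 1 of the forward frames.

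Fh1: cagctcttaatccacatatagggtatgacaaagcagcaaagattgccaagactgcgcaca
Idh3b: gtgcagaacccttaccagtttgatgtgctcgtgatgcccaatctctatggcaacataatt
Suclg1: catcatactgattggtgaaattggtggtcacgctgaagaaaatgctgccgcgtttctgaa

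The upstream regions of Cs, Idh2 and Fh1 are shown because these genes stand on opposite sides of 0 in the comparison. Idh3a, the lowest of the 9, was not matched in the promoter table. Each is the 250 bases before the RefSeq start site on GRCm38.p6, and capitals mark CCAAT, the motif of the factor NF-Y, on either strand. Cs is on the plus strand (chr10:128337477-128337726), Idh2 on the minus strand (chr7:80115351-80115600) and Fh1 on the minus strand (chr1:175625636-175625885).

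Cs: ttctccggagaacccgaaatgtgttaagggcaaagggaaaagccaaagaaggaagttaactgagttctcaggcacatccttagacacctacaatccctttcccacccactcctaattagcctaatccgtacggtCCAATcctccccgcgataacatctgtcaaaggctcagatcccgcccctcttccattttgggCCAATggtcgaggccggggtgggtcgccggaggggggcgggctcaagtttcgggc
Idh2: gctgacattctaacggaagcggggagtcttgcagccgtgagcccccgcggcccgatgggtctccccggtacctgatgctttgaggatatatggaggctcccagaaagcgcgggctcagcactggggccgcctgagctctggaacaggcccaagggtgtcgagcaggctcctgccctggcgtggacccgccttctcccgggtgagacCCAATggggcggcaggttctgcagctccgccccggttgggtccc
Fh1: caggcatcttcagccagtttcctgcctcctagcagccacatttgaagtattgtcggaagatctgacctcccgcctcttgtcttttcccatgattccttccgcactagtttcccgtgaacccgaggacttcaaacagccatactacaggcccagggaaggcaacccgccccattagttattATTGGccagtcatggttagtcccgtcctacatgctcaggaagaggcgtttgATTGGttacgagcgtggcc

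Of the 9 enzymes 8 were matched in the promoter table, with 13 start sites in all, of which several belong to Ogdh. The letters CCAAT, searched on both strands, were found upstream of Cs, Idh2, Idh3b, Ogdh and Fh1. That is 5 of 8 genes, beside 33.8% of the 32851 upstream regions in the table. Here and for the motifs below, a gene was counted if any of its start sites had the letters, while the share is per region. The count and the share are thus in unlike units, and a gene with several start sites, such as Ogdh, is counted more easily. Cs and Fh1 hold 2 matches each and Idh2 holds 1, so the motif stands both in the gene that was lower and in the genes that were higher on the choline-deficient array. The nearest match begins 55 bases before the start site in Cs, 44 in Idh2 and 19 in Fh1. The letters ACGTG, a form of the core of the hypoxia response element, were found only upstream of Ogdh among these 8 genes, beside 16.6% of all upstream regions. The core's other form, GCGTG, was not searched, and it stands in the printed regions of Idh2 and Fh1. TGCGCA, a core of the site of NRF1, a regulator of mitochondrial genes, was found only upstream of Ogdh, beside 6.43%. The half-site of estrogen-related receptors, AAGGTCA, was found in 0 of the 8 genes, beside 4.08%. For CCGGAAG, a site of ETS factors such as GABP, the count was also 0 of 8, beside 6.91%. Every search covered both strands. The guanine and cytosine content of the printed regions was 55.2% for Cs, 67.2% for Idh2 and 52.8% for Fh1, where the median of all regions was 52.4%.

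The comparison addresses the levels of these transcripts in 661W cells with and without choline. Differences among the TCA cycle enzymes were small and went both ways. Idh2 and Fh1 were higher on the choline-deficient array by 1.45-fold each. Idh3a was 1.71-fold lower, Cs 1.43-fold and Idh3b 1.33-fold lower, and Mdh2, Ogdh, Sucla2 and Suclg1 lay closer to 0. Each difference subtracts the choline-sufficient from the choline-deficient log2 level, both taken relative to the array's 75th percentile. The error of each member's difference was 0.20, the scanner software's estimate of array noise, which leaves out variation between cultures. This error was nearly the same for the dimmest member probe, of Ogdh, and the brightest, of Mdh2. For these genes a difference over 2 array errors is therefore a nearly fixed cut in size, not a measure of each gene's own noise.

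At the entry of the cycle stands Cs, the citrate synthase gene, which joins acetyl-CoA to oxaloacetate (NM_026444, mm9, chr10:127799428-127799487). Its processed signal was 69835 on the choline-deficient and 79333 on the choline-sufficient array. After scaling the log2 levels were 5.44 and 5.95, a difference of -0.51 ± 0.20. The choline-deficient level was thus the lower of the pair by more than 2 array errors. A smaller share of all genes, 17.7%, had a more negative difference.

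The isocitrate dehydrogenases split. Idh3a encodes the catalytic subunit of the NAD-dependent enzyme (NM_029573, mm9, chr9:54451368-54451427). Its signals were 9362 on the choline-deficient and 12740 on the choline-sufficient array, and its scaled log2 levels were 2.54 and 3.32. The difference of -0.78 ± 0.20 was the lowest of the 9, and 7.63% of all genes lay below it. Idh3b encodes a regulatory subunit of the same enzyme (NM_130884), and its signals were 6493 on the choline-deficient and 6864 on the choline-sufficient array. Its scaled log2 levels of 2.01 and 2.42 gave a difference of -0.41 ± 0.20. The remaining subunit gene, Idh3g, which is outside the 9, had -0.36 ± 0.20. All 3 subunit genes of the NAD-dependent enzyme were therefore below 0, by between 1.29-fold and 1.71-fold.

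Idh2 encodes the NADP-dependent mitochondrial enzyme, which makes NADPH from the same substrate (NM_173011, mm9, chr7:87239736-87239795, minus strand). Its signals were 42664 on the choline-deficient and 23357 on the choline-sufficient array. The scaled log2 levels were 4.73 and 4.19, a difference of 0.54 ± 0.20, and 83.9% of all genes had a lower difference. Idh2 and Idh3a thus stood on opposite sides of 0. The difference of Idh2 minus that of Idh3a was 1.31 ± 0.29, a 2.49-fold change in their ratio between the arrays. That of Idh2 minus Idh3b was 0.95 ± 0.29. Such a contrast between genes of the same array does not move with a constant scaling of the arrays, and it shows unequal differences, not which gene differed.

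**Figure D1:**
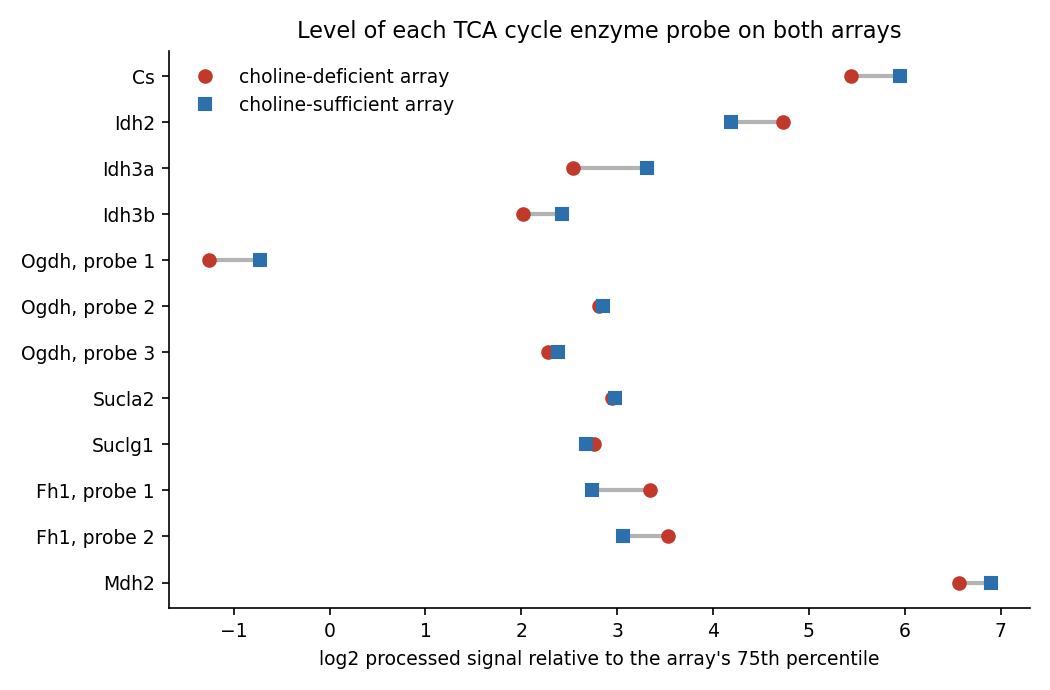
Scaled log2 processed signal of each of the 12 probes of the TCA cycle enzymes on the choline-deficient array (red circles) and the choline-sufficient array (blue squares), with 1 array per group and so no error bars. The red point lies to the left for Cs, Idh3a, Idh3b and Mdh2 and to the right for Idh2 and both Fh1 probes, and levels of different probes are not comparable with each other.

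Ogdh encodes the first component of the oxoglutarate dehydrogenase complex, the step that yields succinyl-CoA (NM_001361902). It had 3 probes in the downstream part of the gene. At chr11:6256583-6256642 on mm9 the signals were 11255 on the choline-deficient and 9234 on the choline-sufficient array, a scaled difference of -0.05 ± 0.20. At chr11:6256511-6256570 they were 7823 and 6656, a difference of -0.10 ± 0.20. These neighbouring probes were both within 1 array error of 0. The third probe, at chr11:6258910-6258969, was far dimmer, with signals of 671 on the choline-deficient and 775 on the choline-sufficient array, and gave -0.54 ± 0.20. The gene's mean of -0.23 ± 0.20 therefore rests on that dim probe, and with the brightest probe alone it was -0.05.

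Succinyl-CoA ligase is built from a shared alpha subunit, encoded by Suclg1, and a beta subunit that sets whether ATP (Sucla2) or GTP (Suclg2) is formed. Suclg1 (NM_019879) had signals of 10914 on the choline-deficient and 8177 on the choline-sufficient array, with scaled log2 levels of 2.76 and 2.68. Its difference was 0.09 ± 0.20. Sucla2 (NM_011506, mm9, chr14:73995311-73995370) had signals of 12395 and 10059 in the same order, scaled log2 levels of 2.95 and 2.97, and a difference of -0.03 ± 0.20. Both were within 1 array error of 0, and they differed from each other by 0.12 ± 0.29, within 1 error. The unscaled signals of both genes were higher on the choline-deficient array, whose 75th percentile, 1609, was also above that of the other array, 1280.

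Fh1 encodes fumarase, which hydrates fumarate to malate. The exon-joining probe shown above had signals of 16351 on the choline-deficient and 8531 on the choline-sufficient array, a scaled difference of 0.61 ± 0.20. The downstream probe (NM_010209) had 18590 and 10675, a difference of 0.47 ± 0.20. The 2 probes lay on the same side of 0, and their mean was 0.54 ± 0.20. Only the exon-joining probe taken alone was past 1.5-fold, at 1.52-fold, against 1.38-fold for the other.

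Mdh2 encodes mitochondrial malate dehydrogenase, which closes the cycle (NM_008617, mm9, chr5:136266157-136266216). Its signals were nearly the same before scaling, 152668 on the choline-deficient and 152397 on the choline-sufficient array. The scaled log2 levels were 6.57 and 6.90, a difference of -0.33 ± 0.20, more than 1 and less than 2 array errors from 0. Neighbouring steps therefore differed in sign at this scaling. The difference of Fh1 minus that of Mdh2 was 0.87 ± 0.29, and that of Fh1 minus Cs 1.05 ± 0.29, a 2.08-fold change in the ratio of fumarase to citrate synthase signal between the arrays.

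At a fixed size of 1.5-fold, 1 of the 9 enzymes was lower on the choline-deficient array, Idh3a, beside 14.1% of all measured genes, and 0 of 9 were higher, beside 14.8%. These shares are near the background and are no result about the enzymes. At a smaller size, a log2 difference of 0.32, the counts were 4 lower (Cs, Idh3a, Idh3b and Mdh2) and 2 higher (Idh2 and Fh1), beside 30.8% and 23.9% of all genes. At 2-fold they were 0 in either direction, beside 3.88% lower and 7.67% higher. Differences over 2 array errors were found for 3 lower (Cs, Idh3a and Idh3b) and 2 higher genes (Idh2 and Fh1), beside 22.6% and 19.4%. For the enzymes this is again a nearly fixed cut in size, which Idh3b only just passed at -0.41. In all 6 of the 9 were below 0, where 57.4% of all genes were, and 3 above 0, where 42.6% were. The median of the 9 was -0.23 against -0.10 for all genes.

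**Figure D2:**
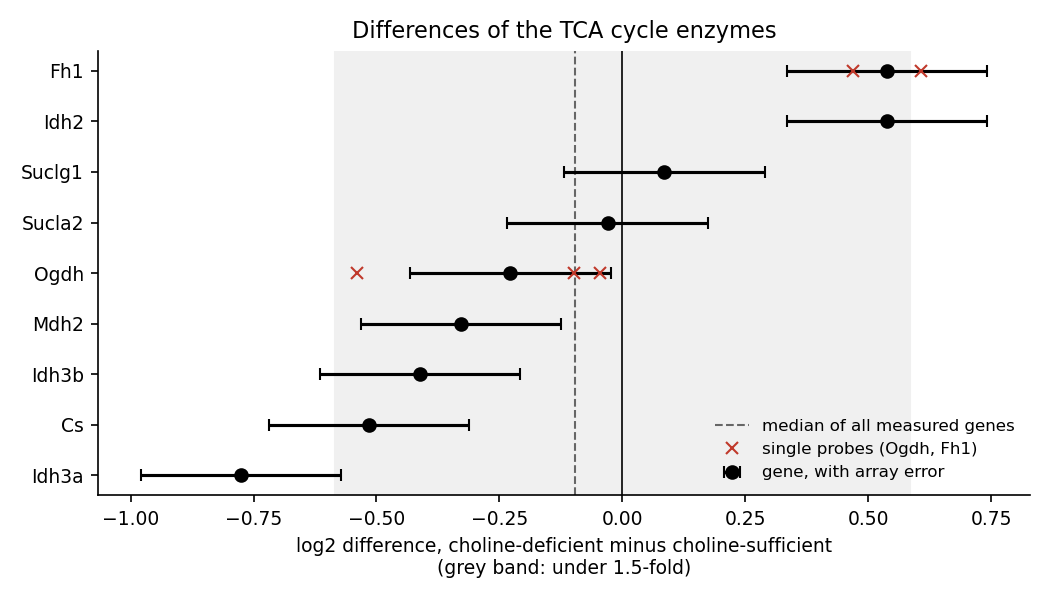
Log2 difference (choline-deficient minus choline-sufficient) of each TCA cycle enzyme, ordered by size, with the array error as bars, single probes of Ogdh and Fh1 as crosses, the median of all measured genes as a dashed line and differences under 1.5-fold as a grey band. Idh3a at -0.78 is the only gene whose value lies outside the band, and Idh2 and Fh1 lie together at 0.54.

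The sign of 5 enzymes was the same under all 11 other processing settings tried. Cs ranged from -0.63 to -0.21, Idh3a from -0.99 to -0.50, Idh3b from -0.60 to -0.14, Idh2 from 0.42 to 0.81 and Fh1 from 0.42 to 0.81. The other 4 changed sign under some: Ogdh was 0.04 with spike-in scaling, Mdh2 was 0.02 after cyclic loess, Suclg1 was -0.03 with scaling to the array median, and Sucla2 was above 0 after quantile normalization, cyclic loess and spike-in scaling, at up to 0.24. Scaling to the array median moved the median of all genes by -0.12 and scaling to spike-in probes by 0.27. The deposited values, the other filters and keeping outlier spots left every enzyme nearly as reported. Other ways to join probes could not move single-probe genes. An unchanged sign under these settings therefore adds little. Relative to the median of all genes, Idh2 and Fh1 lay at 0.63 each, Suclg1 at 0.18 and Sucla2 at 0.07. Below that median lay Ogdh at -0.13, Mdh2 at -0.23, Idh3b at -0.32, Cs at -0.42 and Idh3a at -0.68. These positions also moved with the setting. Over the alternatives Mdh2 lay between -0.23 and 0.05, Ogdh between -0.13 and 0.05 and Cs between -0.42 and -0.19. Idh2 lay between 0.63 and 0.87 and Idh3a between -0.79 and -0.52. Only Mdh2, under 2 settings, and Ogdh, under 1, changed sides.

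**Figure D3:**
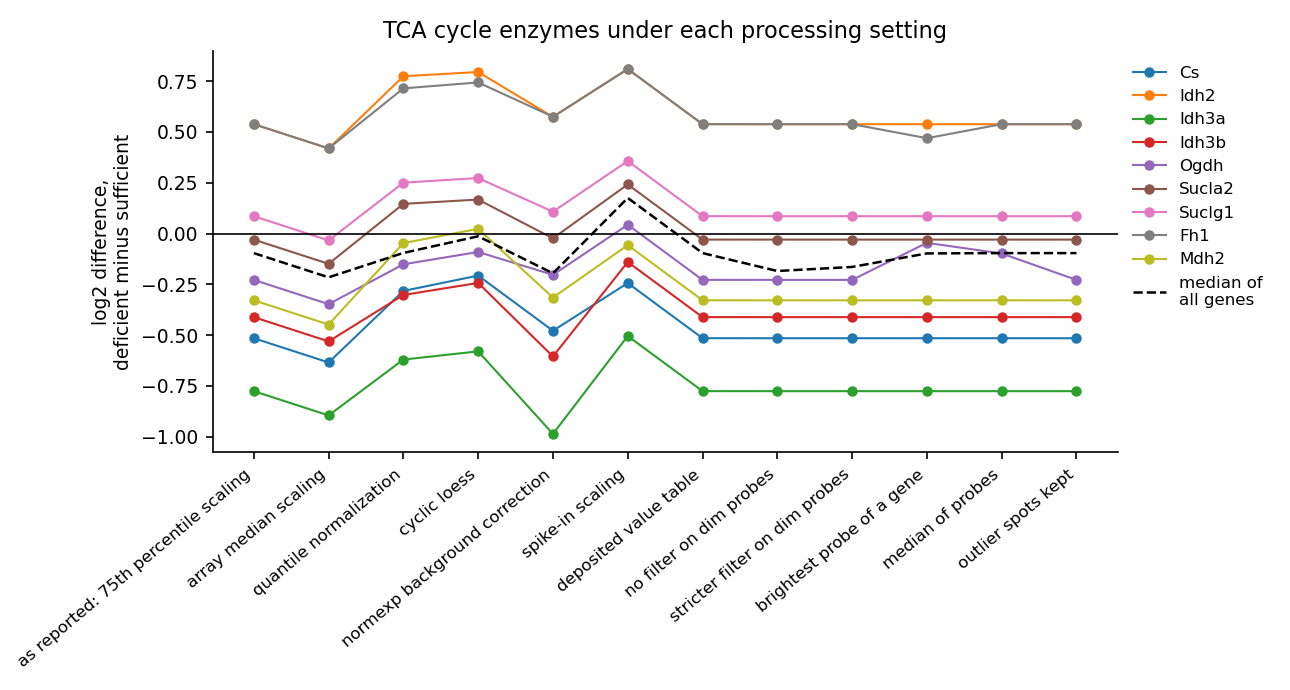
Log2 difference (choline-deficient minus choline-sufficient) of each TCA cycle enzyme under the reported setting and 11 alternatives, with the median of all measured genes as a dashed line; lines join the values of 1 gene and carry no order. Idh2 and Fh1 stay above 0 and Idh3a, Cs and Idh3b below 0 under every setting drawn, and each of the other 4 crosses 0 under at least 1 setting.

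The other subunits of the cycle, with the relatives Dhtkd1 and Ogdhl in a written list of 10 genes, were mostly below 0. Of the 9 measured, 2 were lower without choline by at least 1.5-fold and 0 were higher, beside 14.1% and 14.8% of all genes, and the median was -0.27. Sdhd, a membrane anchor of succinate dehydrogenase, had the largest difference, at -1.08 ± 0.20 or 2.11-fold lower. Dld, the dihydrolipoamide dehydrogenase shared by the oxoglutarate and pyruvate dehydrogenase complexes, had -0.94 ± 0.20, with its 2 probes at -0.95 and -0.94.

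Within complexes the subunits were unequal. Of the succinate dehydrogenase genes, the flavin subunit gene Sdha had -0.57 ± 0.20, the iron-sulfur subunit gene Sdhb 0.12 ± 0.20 and the second anchor gene Sdhc -0.26 ± 0.20. The difference of Sdhb minus that of Sdhd was 1.19 ± 0.29. In the oxoglutarate dehydrogenase complex the succinyltransferase gene Dlst had -0.06 ± 0.20, and the difference of Ogdh minus that of Dld was 0.72 ± 0.29. Suclg2 had -0.27 ± 0.20 and Dhtkd1, of a related oxoadipate dehydrogenase, -0.21 ± 0.23. Ogdhl, a relative of Ogdh, was well above background on neither array. With spike-in scaling Dlst, Suclg2, Sdhc and Dhtkd1 were above 0 and the list's median was 0.00080, and Sdhb was below 0 with scaling to the array median. Dlst was also above 0 after quantile normalization and cyclic loess. Dhtkd1 was dim, at scaled log2 levels of -6.32 on the choline-deficient and -6.11 on the choline-sufficient array. Over the 18 measured genes of both lists, Dhtkd1 included, 14 were below 0, 3 were at least 1.5-fold lower and 0 higher, with a median of -0.26. These counts stand beside 57.4% of all genes below 0 and 14.1% lower by that size.

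**Figure D4:**
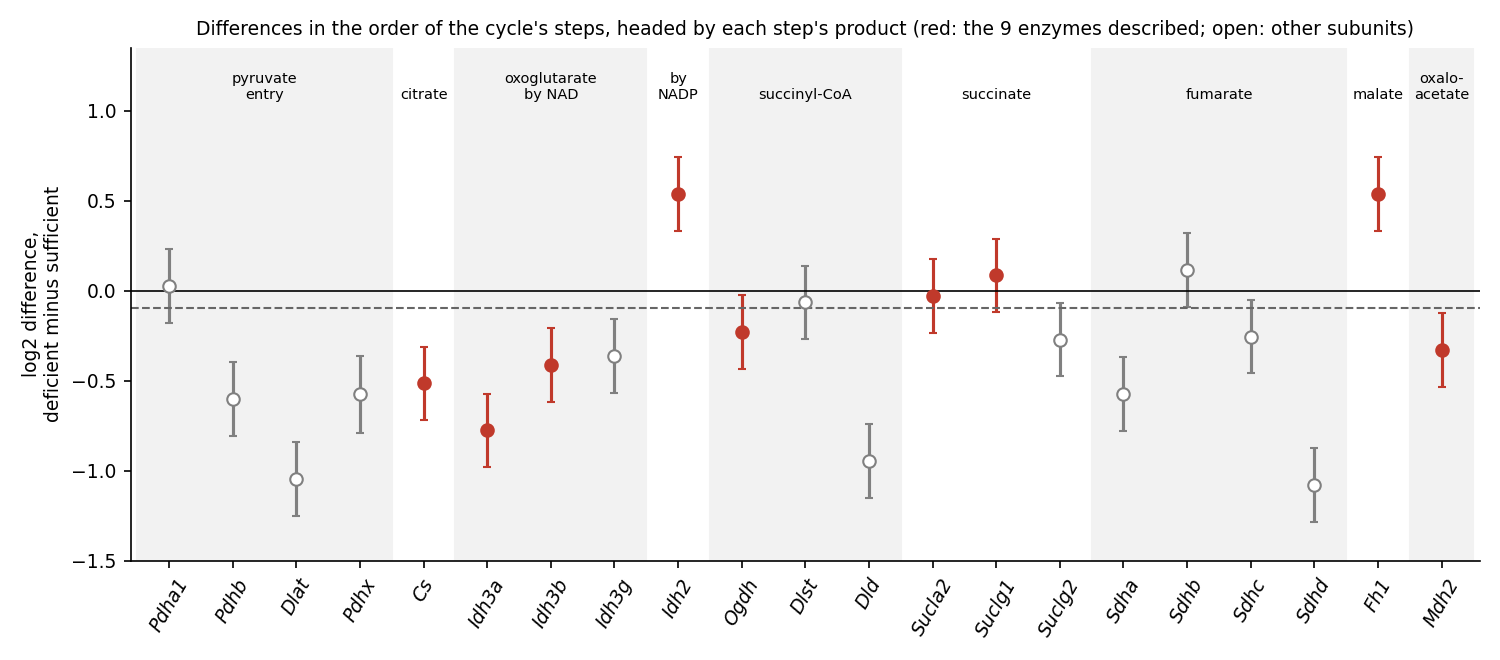
Log2 difference (choline-deficient minus choline-sufficient), with array error, of the genes of pyruvate entry and of the cycle in the order of its steps, each step headed by its product; red points are the 9 enzymes described and open points other subunits, and the dashed line is the median of all genes. Idh2 and Fh1 at 0.54 stand above every other gene drawn (the phosphatase genes Pdp1 and Pdp2 and the regulator gene Pdpr are not drawn), and Sdhd at -1.08 and Dlat at -1.04 lie lowest.

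Upstream of the cycle, the pyruvate dehydrogenase complex and its phosphatases had a median of -0.57. Past 1.5-fold were 2 of 7 genes in the lower and 1 in the higher direction, beside 14.1% and 14.8% of all genes. The lower count was 4 with array median scaling and 1 after cyclic loess and with spike-in scaling. Dlat, the acetyltransferase core of the complex, was 2.06-fold lower, at -1.04 ± 0.20, and Pdhb, a subunit of its first component, had -0.60 ± 0.20. Pdhx, the binding protein for Dld, had -0.58 ± 0.21, Pdha1, of the first component, 0.03 ± 0.20 and Pdpr, a phosphatase regulator, -0.57 ± 0.22. Pdp1, encoding the phosphatase that activates the complex, was 1.89-fold higher, at 0.92 ± 0.20, and Pdp2 had 0.23 ± 0.27. Pdha1 fell below 0 with scaling to the array median and Pdp2 after normexp background correction, and the list's median was below 0 under all settings tried (-0.69 to -0.30). The carriers that bring pyruvate into the matrix, Mpc1 and Mpc2, were 1.78-fold and 1.62-fold lower; with spike-in scaling both were under 1.5-fold.

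Around the cycle, genes of the cytosolic counterparts and of metabolite exchange went both ways. Idh1, the cytosolic NADP-dependent isocitrate dehydrogenase gene, was 3.47-fold higher, at 1.79 ± 0.21, and 2.26-fold after normexp, so both NADP-dependent genes were above 0 while the 3 NAD-dependent subunit genes were below 0. Got1, the cytosolic aspartate aminotransferase gene, was 1.78-fold lower, and under 1.5-fold after cyclic loess and with spike-in scaling. Mdh1, the cytosolic partner of Mdh2, had -0.17 ± 0.20 and differed from Mdh2 by 0.16 ± 0.29, within 1 error, and it was above 0 after quantile normalization, cyclic loess and spike-in scaling. Over the 6 genes of the counterpart list, which also holds the citrate synthase-like gene Csl, 1 was at least 1.5-fold higher and 1 lower, with a median of -0.17. The median of 10 measured metabolite carrier genes was -0.23, with 3 past 1.5-fold in each direction, and 4 higher and 0 lower with spike-in scaling. The dicarboxylate carrier gene Slc25a10 was 2.03-fold and the citrate carrier gene Slc25a1 1.90-fold higher, the former 1.40-fold after normexp. Of 14 measured genes that feed or drain the cycle, 1 was higher and 1 was lower by that size. Their median was -0.18. The mitochondrial malic enzyme gene Me3 was 3.20-fold higher and the propionyl-CoA carboxylase subunit gene Pcca 3.35-fold lower. The medians of these 3 lists were above 0 with spike-in scaling, at 0.10, 0.04 and 0.09. Their counts at 1.5-fold stand beside 14.8% of all genes higher and 14.1% lower. For the counterparts and the genes that feed or drain the cycle, a count of 1 is no result about the list.

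Beside the neighbouring gene groups, the median of the 9 enzymes lay between those of the respiratory chain and of glycolysis. The median of 37 measured complex I genes was -0.37, and 10 of them were lower by 1.5-fold or more and 0 higher, beside 14.1% and 14.8% of all genes. The lower count was 16 with array median scaling, 1 after quantile normalization, 1 after cyclic loess and 0 with spike-in scaling. The complex I genes Ndufs6, Ndufa9, Ndufs7 and Ndufs5 had the largest differences, between 1.66-fold and 1.76-fold lower. Of 34 measured genes of complexes III to V, including cytochrome c, the median was -0.35. By that size 5 were lower, near the 14.1% of all genes, and 0 were higher, beside 14.8%. At the reported scaling 33 of the 34 were below 0, beside 57.4% of all genes. The count of lower genes was 12 with array median scaling, 3 after quantile normalization and after cyclic loess, and 1 with spike-in scaling. The list was led by Uqcrq, of complex III, at 2.11-fold lower, Cox6b1, of complex IV, at 1.81-fold, the cytochrome c gene Cycs at 1.68-fold and Uqcr10, of complex III, at 1.61-fold. Of 19 measured glycolysis genes 10 were past 1.5-fold, all higher, and the median was 0.65. The phosphofructokinase gene Pfkl was 3.37-fold higher, the glucose transporter gene Slc2a1 2.91-fold, the aldolase gene Aldoc 2.77-fold and the transporter gene Slc2a3 2.60-fold, the last with -0.03 after normexp. The count of higher glycolysis genes was between 8 and 14 over the alternatives. Both respiratory chain medians were below 0 and the glycolysis median above 0 under all settings tried, whereas the median of the 9 enzymes turned to 0.02 after cyclic loess and 0.04 with spike-in scaling. The difference between these lists was not tested, since there is 1 array per group.

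**Figure D5:**
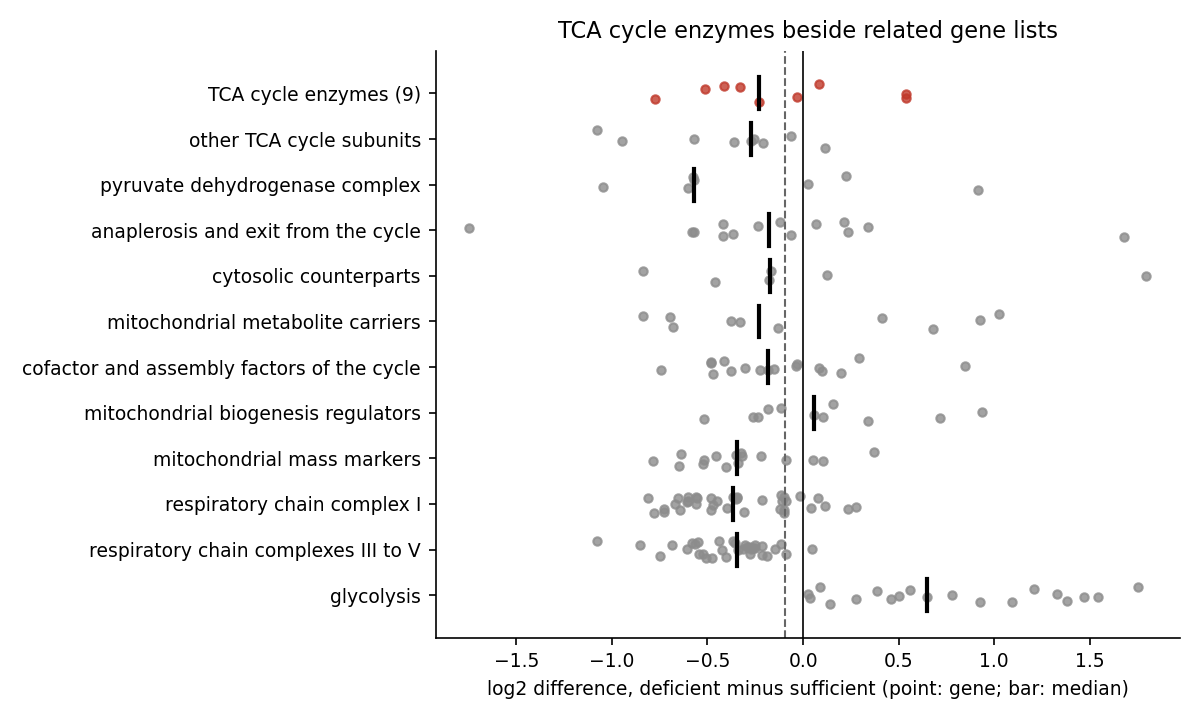
Log2 difference (choline-deficient minus choline-sufficient) of every measured gene in the TCA cycle enzymes (red) and in related lists (grey), with a black bar at each list's median and a dashed line at the median of all genes. The medians run from -0.57 for the pyruvate dehydrogenase complex to 0.65 for glycolysis, and the TCA cycle enzymes lie on both sides of 0 with a median of -0.23.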

How the data were processed

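The submitters' processing notes name Agilent Feature Extraction 12.1.1.1. Spot intensity values come from the deposited scanner files, whose processed signal had background and spatial trend removed, per the file headers; these also give probe positions on mm9. Values of the table deposited beside them are the ratio of processed signal to a constant of each array (1609 and 1280, the 75th percentiles), with medians of 0.0409 and 0.0376 over non-control spots. That table is linear, uncentred and in the direction of the scanner values.

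Here log2 processed signals were set relative to each array's 75th percentile, without control and outlier spots (92 and 86). Spots of a probe, then measured probes of a gene (well above background and unsaturated on both arrays, 26463 of 39426), were averaged. Each error combines the scanner software's errors for the pair of arrays and was not reduced by averaging. Among 268 probes with at least 8 usable spots, spots differed with a median SD of 0.05. With 1 array per group there was no test, and the number of arrays limits the precision. Genes were counted at 1.5-fold.

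The members and lists were chosen with earlier results of these data known. Some genes of these lists are not reported here and are left out of the lists' counts and medians. The naming rule took every member, every other cycle and pyruvate dehydrogenase gene, up to 4 of each other list past 1.5-fold and 2 errors with probes of 1 sign, and genes above background on 1 array only. Dhtkd1 and other genes under 1.5-fold are named by that rule. Alternatives were other scalings, quantile normalization, cyclic loess, normexp with an offset of 50, the value table, other filters and other ways to join probes. Normexp was run on the scanner's mean and background signals, not on the processed signal. Tools were Python 3.11.15 (pandas 2.3.3, numpy 2.4.6) and R 4.3.3 (limma 3.58.1, data.table version 1.17.8). Scripts were tested on simulated data: among 19818 genes of this comparison, the 1.5-fold rule counted 0 of 50 genes set at a log2 difference of 0.32, 26 of 50 set at 1.5-fold and all 50 at both 2-fold and 3-fold. The simulated noise was below the array error and held no variation between cultures. These counts therefore test the scripts and not how the rule performs on these arrays. Sequences came from the scanner files and from RefSeq tables of GRCm38.p6.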

Additional observations from a re-analysis of the deposited data

How the results depend on the processing

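The enzymes' difference between highest and lowest member, 1.31, was 1.56 after normexp and within the array error of its value under the other alternatives. The median of the 9 enzymes, -0.23, was 0.023 after cyclic loess and 0.044 with spike-in scaling, and the median of the other cycle subunits, -0.27, was 0.00080 with spike-in scaling. The number of enzymes at least 1.5-fold lower, 1 as reported, was 2 with array median scaling, 2 after normexp, 0 after cyclic loess and 0 with spike-in scaling. The number at least 1.5-fold higher, 0 as reported, was 2 after quantile normalization, 2 after cyclic loess and 2 with spike-in scaling. With other sizes the lower count was 0 at 2-fold, 4 at a log2 difference of 0.32 and 3 at over 2 array errors, and the higher count 2 at a log2 difference of 0.32 and 2 at over 2 array errors. Of 99 values of single enzymes under the alternatives, 82 moved by less than the array error and 17 by more. Many of the 82 come from settings that could hardly move them, such as the value table, the filters and the joining of probes for single-probe genes. Spike-in and median scaling add a constant to every gene; the cause of the other changes was not tested. All member probes were well above background on both arrays. After normexp Idh3a went from -0.78 to -0.99 and Idh3b from -0.41 to -0.60, while the other members moved less. That setting started from the mean and background signals instead of the processed signal, so it also left out the removal of spatial trend. Which of these steps moved the values was not tested. No paired analysis was possible because each group holds 1 array and no result comes from a test.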

Other observations

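Mitochondrial genes outside the cycle gave values of both signs. A list of 16 genes held import machinery, pores and chaperones of mitochondria, and also the ADP/ATP carrier genes Slc25a4 and Slc25a5, the prohibitin genes and Immt. Of the 16, 3 were lower without choline by at least 1.5-fold and 0 higher. Their median of -0.35 stayed below 0 under all settings tried. The lower count was 5 with array median scaling and 0 after quantile normalization, after cyclic loess and with spike-in scaling. The chaperonin genes Hspd1 and Hspe1 were 1.72-fold and 1.56-fold lower and the inner membrane translocase gene Timm23 1.57-fold lower. Of 11 regulators of mitochondrial biogenesis, the median was 0.06, and 2 passed 1.5-fold, both higher; the median was below 0 under 2 alternatives, at -0.06 with array median scaling and -0.11 in the other. Ppargc1a, a coactivator of mitochondrial gene transcription, had 0.94 ± 0.28, and its relative Ppargc1b 0.72 ± 0.22. After normexp background correction they were 0.27 and 0.10, and 0 of the 11 passed 1.5-fold. These shares stand beside 14.8% of all genes higher and 14.1% lower.

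Of 17 genes of lipoylation, iron-sulfur cluster supply and succinate dehydrogenase assembly, 1 was at least 1.5-fold higher and 1 lower. Of all genes 14.8% were higher and 14.1% lower by that size, so these counts are no result about the list. Their median was -0.18, and it was 0.09 with spike-in scaling. Sdhaf4, an assembly factor of succinate dehydrogenase, was 1.80-fold higher, and Iscu, the scaffold for iron-sulfur clusters, 1.67-fold lower. The lower count was 4 with array median scaling and 0 with spike-in scaling. Csl, a citrate synthase-like gene, had -0.46 ± 0.20 and differed from Cs by 0.05 ± 0.29, within 1 error. The carrier gene Slc25a18 was well above background on the choline-deficient array only. Its scaled log2 level there, -8.10, was close to the lowest level called well above background on the choline-sufficient array, -8.23, so no size of difference is given.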
